A study of Mus musculus with 9 samples.

Results

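The baseline considered here is the spinal cord of naive B10.PL mice, the 3 arrays titled as naive controls (replicates 2, 3 and 4) out of the 9 arrays of the series. All 3 were used, and none was compared with the other 6, which came from mice with experimental autoimmune encephalomyelitis (EAE) given placebo or 200 ng of 1,25(OH)2D3, the active form of vitamin D, with the cords taken 6 h later. The title of 1 treated array, not used here, names 1,25(OH)2D2 instead. The naive mice share the B10.PL strain with those mice, and the labels name no induction, placebo or treatment time for them. RNA of the cord, labelled as total RNA, was hybridised to 1-colour oligonucleotide arrays, 1 array per sample. The labels give no age or sex, and do not say whether the 3 samples are 3 animals, pools or repeats, so the spread between arrays may be technical.

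The spinal cord is mostly white matter around a core of grey matter. Oligodendrocytes wrap the long axons in myelin, astrocytes take up transmitter and potassium and support metabolism, and microglia are the resident macrophages. The neurons of the grey matter include cholinergic motor neurons, inhibitory interneurons that use glycine and GABA, and peptide-releasing cells of the dorsal horn. Much of the RNA of a neuron lies in its cell body, so long axons whose cell bodies are elsewhere bring little RNA into the sample. Healthy nervous tissue behind the blood-brain barrier holds few lymphocytes and neutrophils.

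Each value below is a signal in deposited units after scaling the 3 arrays to a common mean of 183 (the lowest and highest 2% of probe sets left out). Signals under a floor of 18.3, which is 10% of that mean, were raised to it. Of 12422 probe sets outside the 66 controls, 10833 carried 1 gene symbol, and 8251 genes were each represented by 1 probe set. The probe-set name tells its type: a plain one was designed to be unique, whereas the letters s, f, g, i and r mark sets that are shared by similar transcripts, by a family or a group, or that had to break design rules (r for dropped rules). Probe sets bind their targets unequally, so an order of signals is not an order of transcript numbers. The size of that effect can be read from the 817 genes with several plain probe sets, whose brightest and dimmest differed 2.50-fold at the median, with 29.6% of them at least 4-fold apart. Ldhb, a lactate dehydrogenase subunit, gave 1467, 1488 and 1329.8 on replicates 2, 3 and 4 with its brighter plain probe set and 23.5, 58.4 and 26.9 with the other. Psap, the precursor of lysosomal saposins, had plain probe sets with means of 1343, 94.4 and 47.8. Hnrnpab, an RNA-binding protein, and the receptor kinase Ror2 were bright with 1 plain probe set (579 and 512 on average) and at the floor on all 3 arrays with the other. Wbp2, a WW-domain binding protein, likewise had means of 944 and 22.6, the latter from replicates 2 and 4 because replicate 3 lists it at 0. No groups were compared, so no test was run, and statements of order describe these signals.

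The 3 arrays did not agree equally. Log2 signals of replicates 3 and 4 correlated across probe sets at 0.908 (Pearson; Spearman 0.922), those of replicates 2 and 3 at 0.903 (0.908) and those of replicates 2 and 4 at 0.839 (0.844). Probe sets are not independent replicates, so these are descriptions. Of the 100 brightest probe sets of each array, replicates 3 and 4 shared 85, whereas replicate 2 shared 57 with replicate 3 and 50 with replicate 4, and 49 were common to all. The median standard deviation (SD) of a probe set over the arrays was 0.35 log2, and 0.22 log2 without replicate 2. Of 12020 probe sets with a value on every array, 70.4% kept within 2-fold over all 3.

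Replicate 2 differed from the others in a signal-dependent way, and replicate 4 deviated in the opposite direction among dim probe sets. In the brightest 10% of probe sets the median difference of replicate 2 from the mean of the other arrays was 0.17 log2. In the second-lowest 10% it was -0.27 log2. For replicate 4 these differences were -0.06 and 0.20 log2, and for replicate 3 they were -0.12 and 0.06 log2. Probe sets varied most in the second-lowest 10%, with a median SD of 0.71 log2 and 30.4% within 2-fold. In the brightest 10% these were 0.24 log2 and 82.9%, the latter under the 87.0% of the next 10% down. Bacterial and phage RNAs added as hybridisation controls (BioB, BioC, BioDn and Cre) also set replicate 2 apart. Of their probe sets with names ending in _at, all 8 with a value on replicate 2 were lowest there and highest on replicate 4. In these, replicate 4 exceeded replicate 2 by 1.98-fold to 12.7-fold, with a median of 6.45-fold. Their sets ending in _st did not all share this order (BioB-5 gave 357, 708 and 577 on replicates 2, 3 and 4). The source label of replicate 2 reads differently from that of replicates 3 and 4 (it adds the species), and the labels name no batch. Whether any of this plays a part in the gene values below was not tested, so each main value is given for every array.

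**Figure D1:**
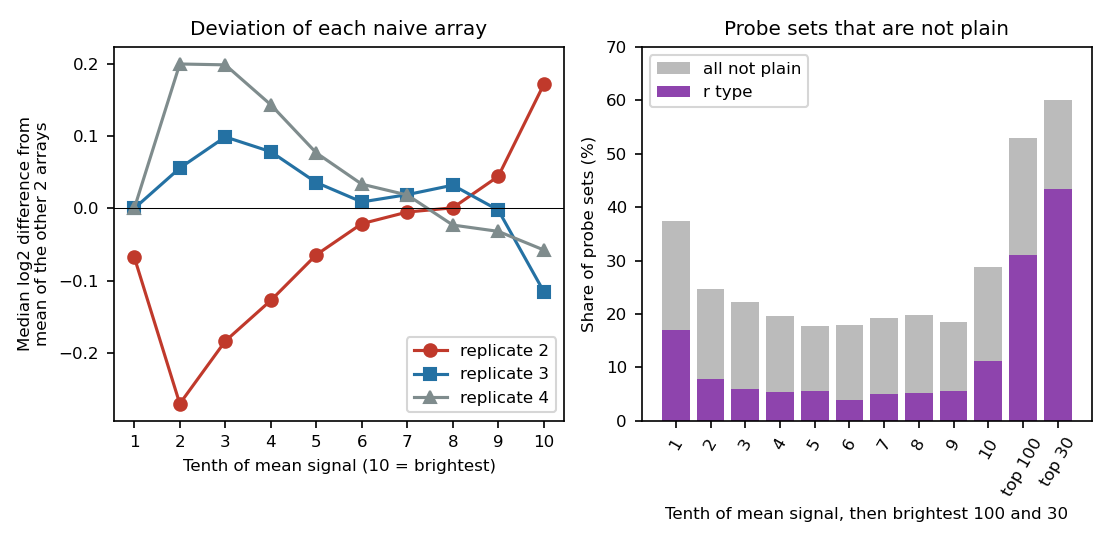
Left, the median log2 difference of each naive array from the mean of the other 2 arrays, in 10 steps of mean signal with equal numbers of probe sets (step 10 is the brightest). Right, the percentage of probe sets that are not plain (grey) and of r type (purple, part of the grey) in each step and among the brightest 100 and 30. Replicate 2 runs from -0.27 log2 in step 2 to 0.17 log2 in step 10, and r-type sets make up 31.0% of the brightest 100.

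Exact zeros were treated as missing values. They occurred in 402 probe sets, in 10 of them on 2 arrays and in the rest on 1. The 176 that were 0 on replicate 2 had a median signal of 426 on the other arrays, and 44 of them had over 4 times the common mean (733 units) there. The 65 of replicate 3 and the 171 of replicate 4 had medians of 57.3 and 97.5 elsewhere. Several defining neural markers were among those lost on replicate 2. Gfap, the intermediate filament of astrocytes, gave an exact 0, 899.5 and 944 on replicates 2, 3 and 4, and its g-type probe set an exact 0, 1236 and 1279. Mbp, a main protein of myelin, gave an exact 0, 2189 and 1671 with its brighter probe set. Its other probe set had a value on every array, at 211, 199 and 152. Apoe, the lipid carrier made by astrocytes (an exact 0, 1420.5 and 1318), Gja1, the astrocyte gap junction protein connexin 43 (an exact 0, 1281 and 1203, f type), and Nefl, the light neurofilament chain (an exact 0, 703 and 739), were listed in the same way. These probe sets were at 703 units or more on both arrays that measured them. Other probe sets of the same genes had a value on every array and were dimmer: an r-type set of Gja1 gave 445, 197 and 119.6 and an i-type set of Apoe 68.6, 51.3 and the floor.

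Signal was spread over many probe sets. The 100 brightest probe sets held 10.5% ± 1.18 (SD, n = 3) of the summed signal of an array (11.9%, 9.70% and 10.0% on replicates 2, 3 and 4). By mean signal the 1000 brightest held 37.4% and the 6211 dimmest 13.8%. The median probe set had a mean of 122 units, 555 (4.47%) exceeded 4 times the common mean and 70 exceeded 10 times. At the other end, 258 probe sets (2.08%) were at the floor on every array that gave them a value, and 10112 (81.4%) were above it on all 3.

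The 30 brightest probe sets with a single symbol ran from 7948 down to 2497 units on average and named 29 genes. Sets with no symbol or several were passed over, so the 30 reach to rank 41 of all probe sets. The brightest of all, of s type and without a symbol, gave 13251, 6799 and 5558 on replicates 2, 3 and 4. An f-type set shared by Gapdh, Gm12070 and Gapdh-ps15 gave 3855, 7100 and 6232. Fth1, the heavy chain of the iron store ferritin, was the brightest of the 30, at 10149, 6969 and 6728. A second Fth1 probe set, of r type, had nearly the same mean (7872 against 7948) but was lowest on replicate 2, at 5016, 8522 and 10079. Thus 2 probe sets of 1 gene ordered the arrays in opposite ways.

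Energy supply and translation were represented among these 30. Ckb, the brain creatine kinase that buffers ATP, gave 4216, 3078 and 3852, and the arrays stayed within 1.37-fold. Aldoc, the glycolytic aldolase of astrocytes, gave 6118, 2653 and 2112, with replicate 2 far above both others. Eef1a2, the elongation factor of neurons and muscle, was steadier at 4319, 3368 and 3400.4. The ribosomal proteins Rps13 (2889, 4359.8 and 4217, r type) and Rpl41 (3918, 1905 and 1842, f type) diverged on replicate 2, which was lowest for the former and highest for the latter.

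Other genes among the 30 are known from neurons or glia. Tubb4a, the beta-tubulin abundant in oligodendrocytes, had 4951, 2783 and 2939. Mobp, a myelin-associated basic protein, had 4025, 1637 and 1828, and 3 further probe sets of Mobp averaged 2238, 901 and 276. Ndrg4, a cytoplasmic protein of neurons, gave 4507, 2379 and 2018 and Scd2, the stearoyl-CoA desaturase of brain and myelin, 4864, 1751 and 1514. In all 4 genes replicate 2 was the highest array and the other arrays lay close together. Basp1, a growth-cone membrane protein, hardly varied, at 2741, 2814 and 2786. Gnas, the stimulatory G protein alpha subunit, read 8101, 3802 and 3392 with a probe set of s type and 581, 594 and 621 with a plain one. The plain set was thus far dimmer but level across the arrays. The alpha-tubulin Tuba1c had 3738, 1936 and 2137 with a family probe set. Snrpb, a spliceosome protein, had 4648, 3699 and 4663 and the nuclear protein parathymosin, Ptms, 3222, 2745 and 3134, both r type and without the excess of replicate 2. Zwint, a kinetochore protein that also occurs in neurons, gave 4107, 1909 and 1483.

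Other bright probe sets carried names of genes with a main role outside nervous tissue. Sprr1b, a small proline-rich protein of the cornified envelope of skin, gave 6734, 8568 and 7297 with an r-type probe set. Its relatives Sprr2g and the pseudogene Sprr2j-ps, both with family probe sets (f type), averaged 2569 and 2802. Sct, the precursor of the gut hormone secretin, gave 2700.0, 3015 and 3577 (r type). These signals were high on all 3 arrays.

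For other genes the plain probe set disagreed with the bright one. Hoxa4, a homeobox gene, read 1959, 3332 and 4051 with an r-type probe set and 99.2, 64.5 and 82.8 with its plain one. Rbfox2, a splicing regulator, read 7699, an exact 0 and 4120.0 with an r-type and 49.5, the floor and an exact 0 with a plain probe set. Neither gene would be called bright from its plain set. The kinase Plk3, stomatin (Stom), the pacemaker channel Hcn2 and the splicing factor Sf3a2 also ranked here through r-type sets, with means between 3119.9 and 3519, and Sf3a2 was listed at 0 on replicate 2. Rnf208, a ring-finger protein, gave an exact 0, 2879.9 and 3107 and the uncharacterised 4833439L19Rik an exact 0, 5996 and 4765, both with plain sets that are bright where measured.

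Probe-set type followed the signal. Of these 30, 13 were of r type, 4 of f type, 1 of s type and 12 plain. The r type made up 7.25% of all probe sets but 31 of the 100 brightest and 58 of the 258 at the floor, so it was frequent at both ends. Plain sets were 77.4% of all and 47 of the 100 brightest. Replicate 2 also related differently to the types. Among probe sets over 4 times the common mean with a value on every array, 59 of 76 r-type sets were lower on replicate 2 than on the mean of the others (median -0.32 log2), whereas 248 of 332 plain sets were higher (0.33 log2). The last inside the brightest 100 were Ift88, an intraflagellar transport protein (1609.9 units on average), and a set shared by Gm12338 and Cox7c (1593). The first outside were a set shared by Rps27rt and Rps27 (1585) and Sst, the neuropeptide somatostatin (1567), so rank 100 marks no gap.

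**Figure D2:**
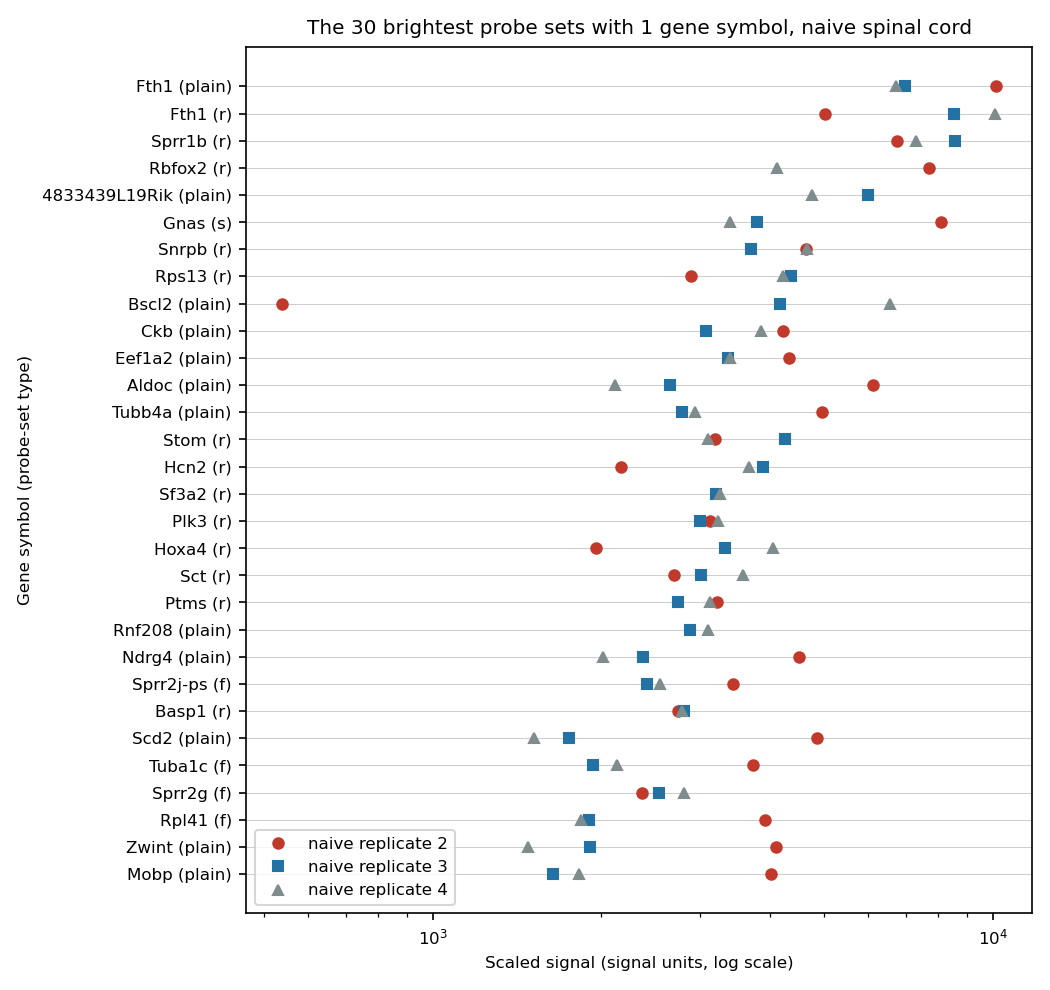
Scaled signal (log axis) of the 30 brightest probe sets with 1 gene symbol on each naive array, with the probe-set type in brackets. A missing point is an exact 0 in the deposited values. Fth1 leads, Bscl2 is the only one with a point under 1000 (538 on replicate 2), and for Aldoc, Scd2, Zwint and Mobp replicate 2 lies to the right of both other arrays.

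To place cell types and functions in this order, 42 gene lists were used, with 655 of 871 genes measured. A list's position is the median percentile of its members among the 8251 represented genes, where all genes give 50. A high position of a cell type's markers says that their probe sets were bright: more cells of a type and more RNA per cell cannot be told apart in bulk tissue, and probe binding enters as well. Lists at or above the 75th percentile numbered 10, led by astrocyte, glycolysis, general neuron, cytoskeleton and myelin genes. Chemokine, mast cell and oligodendrocyte precursor lists came last. For each list the brightest members are given, and dim members named beside them were chosen after their values were seen.

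**Figure D3:**
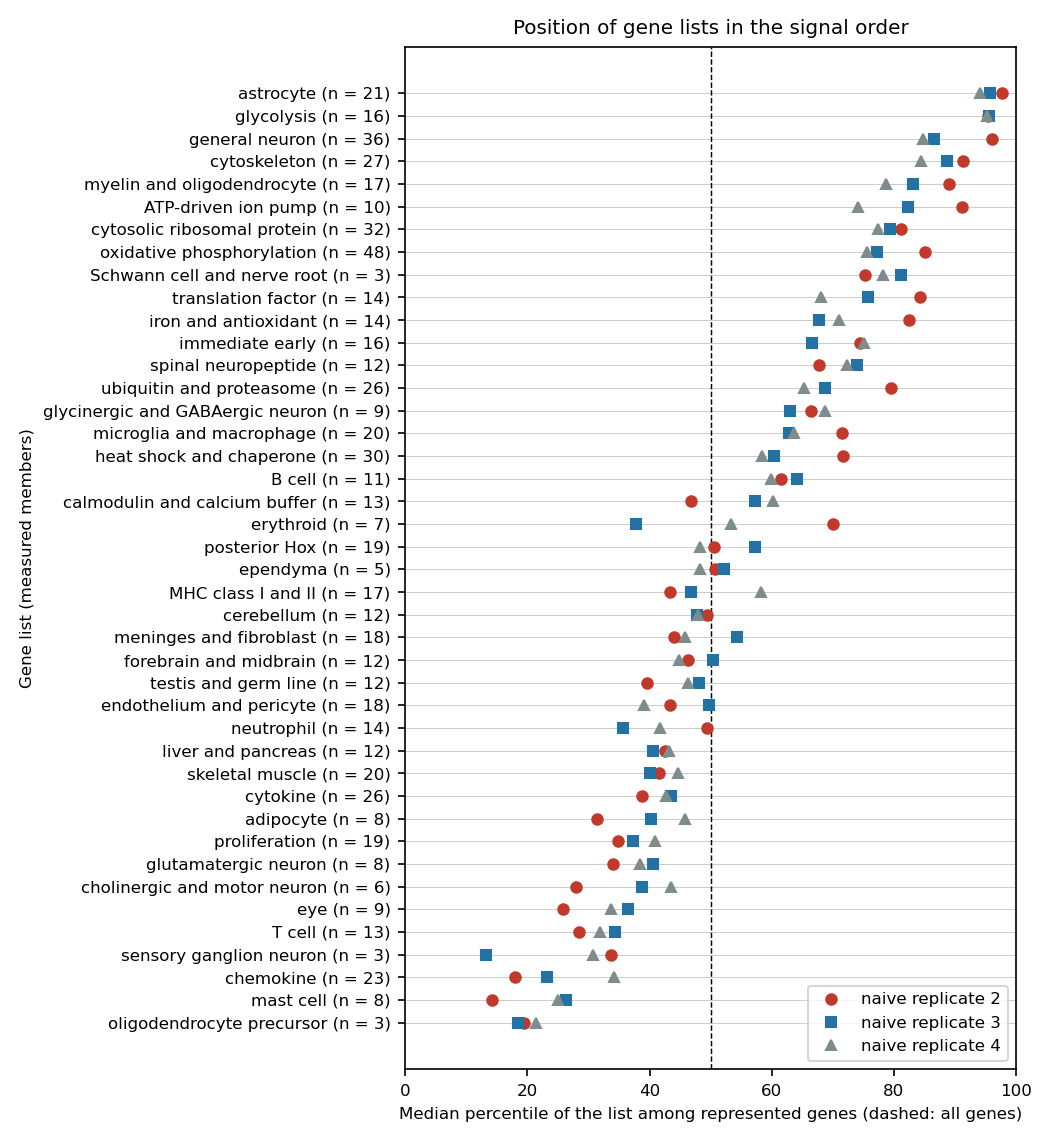
Median percentile of each gene list among all represented genes on naive replicates 2, 3 and 4, with the number of measured members. The astrocyte list lies between 94.1 and 97.8 on the 3 arrays and the T cell list between 28.4 and 34.4, while the dashed line marks 50, the position of all genes.

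By the mean over arrays, astrocyte genes took the highest position, at the 95.9 ± 1.84 percentile (SD, n = 3; 97.8, 95.8 and 94.1 on replicates 2, 3 and 4). Glycolysis genes were higher on replicate 4 (95.3) and on the mean without replicate 2 (95.4 against 94.9). Averaged over all probe sets of a gene, the astrocyte list was at 88.9 and the glycolysis list at 94.7. Of 21 measured members, 15 were in the brightest 10% of genes, against 10.0% of all genes, and 0 were at the floor on all arrays. Beside Aldoc, the metal-binding metallothioneins Mt1 (3543, 1821 and 1608), Mt3 (2719, 1395 and 1437) and Mt2 (2145, 1132 and 1132) were bright. They too were highest on replicate 2, and similar on the others. Aqp4, the water channel of astrocyte end-feet, gave 3154, 1032 and 923, a 3.42-fold range. Clu, the secreted chaperone clusterin, was steadier at 1233, 1084 and 906. Among the dimmest were Glul, glutamine synthetase (an exact 0, 162 and 173), and Fgfr3, a growth factor receptor (113, 121 and 202, i type), both genes that astrocytes are known to express. Of 17 members with a value on every array, 15 were higher on replicate 2 than on the mean of the others, with a median of 1.01 log2. Over all represented genes 3838 of 7973 were higher on that array. Among plain probe sets over 4 times the common mean with a value on every array, 248 of 332 were.

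General neuron genes lay at the 89.2 ± 6.08 percentile (96.1, 86.6 and 84.7 by array), with 19 of 36 in the brightest 10%. Basp1, given above, was the brightest. Cplx1, a complexin that clamps vesicle fusion, gave 3037, 1727 and 1679. Nefm, the medium neurofilament chain of large axons, gave 3128, 1462 and 1139.9, and Snap25, a component of the fusion machinery, 3199, 1260.3 and 894. Both were more than 2-fold higher on replicate 2 than on either other array. Uchl1, a neuronal ubiquitin hydrolase (1656, 1113 and 1317), and Thy1, a surface glycoprotein of projection neurons (1371, 1137 and 1167), varied less. At the lower end, the vesicle calcium sensor Syt1 (68.9, 46.8 and 53.3), the active-zone scaffold Pclo (31.2, 58.6 and 34.6) and the endosomal protein Nsg1 (the floor, 39.7 and 24.9) were low. The list spanned 27.7 to 2780.4 units.

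Myelin and oligodendrocyte genes followed at the 83.6 ± 5.18 percentile (89.0, 83.2 and 78.7), with 7 of 17 in the brightest 10%. Apart from Mobp and Mbp, Mag, the adhesion molecule of the inner myelin wrap, gave 2207, 1341 and 1375. Qdpr, a pterin reductase, gave 1620.5, 807 and 545, and the myelin lipid raft protein Mal 1294, 759.9 and 519.7. Sox10, the transcription factor of the lineage, was alike on all arrays at 635, 631 and 762. Mog, a protein of the outer myelin surface, was far dimmer at 182, 165 and 186, also with close agreement. Cnp, the 2′,3′-cyclic nucleotide phosphodiesterase and an abundant myelin protein, was dim on every array, at the floor, 37.3 and 21.8. Averaging over all probe sets of a gene, not only its representative, lowered this list to the 67.2 percentile. Of 8 oligodendrocyte precursor genes, 3 were measured. Pdgfra, the growth factor receptor that defines these cells, gave 199.8, 174 and 213, while Ptprz1 (46.2, 52.3 and 42.3), a receptor phosphatase, and the proteoglycan versican, Vcan (39.1, the floor and 59.6), were dim.

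Lists named for spinal neuron classes lay lower in the order than the general neuron list. They include receptor subunits, which sit on cells that receive a transmitter, so their positions do not rank the classes themselves. Glycinergic and GABAergic genes lay at the 66.0 ± 2.85 percentile, with 0 of 9 in the brightest 10%. Glra1, the glycine receptor subunit of the adult cord, gave 512, 494 and 394. Slc32a1, the vesicular transporter for both transmitters, gave 749, 341 and 299, and the receptor subunit Glrb 689, 333 and 265. The factor Pax2, which marks inhibitory dorsal horn neurons, went the other way with replicate 2 lowest, at 213, 356 and 473. Glutamatergic genes were at the 37.7 ± 3.28 percentile, with 8 of 12 measured and no vesicular glutamate transporter among them. The AMPA receptor subunits Gria2 (528, 174 and 101.9) and Gria1 (327, 183 and 199) led that list, followed by the dorsal horn factor Tlx3 (179, 205 and 249) and the NMDA receptor subunit Grin2b (104, 124 and 140.0).

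Of 15 cholinergic and motor neuron genes, 6 were measured, at the 36.7 ± 7.96 percentile. The acetylcholine-degrading enzyme Ache gave 567, 431 and 458 and the vesicular acetylcholine transporter Slc18a3 averaged 171. The motor neuron factors Lhx3 (104, 188 and 152) and Isl1 (34.0, 74.2 and 56.1) were lower. Motor neurons are few among the cells of the cord, and dim markers here do not measure their number.

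Spinal neuropeptide genes reached the 71.4 ± 3.22 percentile (67.8, 74.0 and 72.3), above the lists named for transmitters. Sst, the inhibitory peptide somatostatin, gave 2267, 1206 and 1228 and Penk, the precursor of the enkephalins, an exact 0, 916 and 1261. Trh, the precursor of thyrotropin-releasing hormone (893, 962 and 1087), and Pdyn, the precursor of the dynorphins (911, 1006 and 870.0), agreed closely over the arrays. Tac1, the precursor of substance P and a known dorsal horn peptide, was near the floor at 46.7, 30.9 and 38.9.

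Microglia and macrophage genes held a middle position, the 66.0 ± 4.75 percentile (71.4, 62.8 and 63.7), and 1 of 20 was in the brightest 10%. That member was Cst3, the protease inhibitor cystatin C (2401, 2041 and 1795), which astrocytes also make. The fractalkine receptor Cx3cr1, a defining microglial marker, gave 389, 411 and 468, and Csf1r, the receptor on which microglia depend, 309.9, 445 and 408. Cd14, a receptor for bacterial products, gave 386, 387 and 443 and the lysosomal protease Ctsd 376, 388 and 403. These 4 genes varied by no more than 1.44-fold. The leukocyte antigen Ptprc (the floor, the floor and 41.5), the lysozyme Lyz2 (the floor, 38.4 and the floor) and the integrin Itgam (31.8, 56.1 and the floor) were at or near the floor. On the average over all probe sets of a gene the list fell to the 52.2 percentile.

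Vessel and meningeal genes lay close to the middle of all genes. The endothelium and pericyte list was at the 44.1 ± 5.36 percentile, with 0 of 18 in the brightest 10%. Its leading members were basigin, Bsg (420.2, 453 and 339), the actin-binding transgelin, Tagln (237, 349.8 and 347), the surface antigen Ly6e (394, 256 and 239) and the TGF-beta co-receptor Eng (189.7, 251 and 255). Cldn5, the tight junction claudin of brain vessels, gave 121, 159.6 and 78.0. Cdh5, the cadherin of all endothelium, was at the floor on all 3 arrays. The meninges and fibroblast list was at the 48.1 ± 5.52 percentile. Ptgds, the prostaglandin D synthase of meninges and oligodendrocytes, stood out in it at 1242, 1449 and 1279. The GABA transporter Slc6a13 (511, 435 and 435), the collagen enhancer Pcolce (325, 405 and 339) and the collagen chain Col1a1 (303, 265 and 261) came next.

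Among 5 measured ependymal genes, Foxj1, the regulator of motile cilia, gave 515, 482 and 401, above the lipid transfer protein Pltp (291, 185 and 155), the membrane protein Prom1 (137, 146 and 132) and Rarres2, the precursor of the attractant chemerin (80.5, 85.2 and 133). The ependyma list was at 50.4 ± 1.98. Schwann cell and nerve root genes were at the 78.2 ± 3.00 percentile on 3 members only. These were the factor Egr2 (539.9, 365 and 443), which other cells use as an immediate early gene, the calcium-binding S100a4 (279.6, 343 and 302) and the peripheral myelin protein Pmp22 (87.0, 108 and 149). Sensory ganglion genes, also 3, were low: the actin-binding Avil (126, 50.8 and 93.1) and the sodium channels Scn10a (81.6, 41.3 and 48.1) and Scn9a (the floor, 18.5 and 81.9).

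Housekeeping functions occupied most of the other high positions. Glycolysis and creatine kinase genes lay at the 95.4 ± 0.09 percentile (95.4, 95.5 and 95.3 by array), where a percentile has little room to move. Their summed signal was 23776, 15941 and 15551 units, highest on replicate 2, and 12 of 16 were in the brightest 10%. Besides Ckb and Aldoc, the pyruvate kinase Pkm gave 4379, 1634 and 1433 (s type) and Ldhb was given above. Cytoskeleton genes were at the 88.2 ± 3.45 percentile. The actin-severing cofilin, Cfl1, gave 2765, 2325 and 2036, and the tubulins Tuba1a (1832, 1877 and 2152, i type) and Tubb5 (1807, 1826 and 1968, r type) were alike on all arrays. Cytosolic actin, Actg1, gave 2677, 1185 and 1000.5.

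ATP-driven pumps were at the 82.5 ± 8.44 percentile. Atp2a2, the calcium pump of the endoplasmic reticulum, gave 2082, 973 and 741, and the proton pump subunits Atp6v1e1 and Atp6v1a gave 821, 781 and 659 and 1142, 401 and 288. Fxyd1, a regulator of the sodium pump, gave 555, 496 and 506. Ribosomal protein genes lay at the 79.3 ± 1.96 percentile, but 32 of 79 were measured, and they ran from 34.7 to 3822 units although a ribosome holds most of these proteins in equal number. Rps4x (1932, 1013 and 869.6) and Rps7 (1196, 999 and 814) were bright and Rpl39 (21.0, 59.2 and 23.9) near the floor. Oxidative phosphorylation genes were at the 79.3 ± 5.02 percentile, with 19 of 48 in the brightest 10%. They were led by the cytochrome oxidase subunits Cox6c (an exact 0, 2309 and 1917 with an f-type set, while its other sets averaged 85.8 and 73.6) and Cox6a1 (1729, 1048 and 708) and the ATP synthase subunits Atp5l (1685, 1531 and 1408) and Atp5a1 (2040.1, 1129 and 889).

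Translation factors lay at the 76.0 ± 8.12 percentile and iron and antioxidant genes at 73.8 ± 7.71. Tpt1, the translationally controlled tumour protein, gave 3539, 2027 and 1820.3, Eef1a1 3623, 1791 and 1555 and Eef2, the translocation factor, 1816, 968 and 946. Eef1g, a subunit of the same elongation machinery, was at the floor on all 3 arrays, and since translation needs it in every cell, a floor value here does not show that a gene is silent. Glutathione transferase Gstm1 (2289, 1467 and 1481), superoxide dismutase Sod1 (1574, 768 and 704) and Gstp1 (905, 771 and 784) followed ferritin. The ubiquitin and proteasome (71.2 ± 7.42) and chaperone lists (63.5 ± 7.21) were moderately high. Their leading members were the proteasome subunits Psmb1 (1524, 914 and 951) and Psmb7 (825, 455 and 436), the 14-3-3 proteins Ywhag (2774, 1012 and 868) and Ywhaz (912, 988 and 1265) and the constitutive chaperone Hspa8 (2183, 965 and 747). In each of these lists replicate 2 had the highest position.

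Calcium buffers lay near the middle (54.8 ± 7.04), with parvalbumin, Pvalb, at 1166, 1629 and 2076 (i type, lowest on replicate 2), the neuronal calcium sensor Vsnl1 at 1636, 504 and 439.9 and S100b, the astrocyte protein, at 1012, 306 and 256. Immediate early genes, which respond to stimuli within minutes, lay at 72.0 ± 4.77. The steadily made Jund gave 1507, 1588 and 1499 and Jun an exact 0, 1178 and 1274, and the antiproliferative Btg2 794, 531 and 694. The rapidly inducible Fos was dim at 61.0, 81.1 and 53.9. The proliferation list was at 37.7 ± 3.06. Its leader was the mitotic kinase Plk1 (801, 512 and 566, f type). The proliferation antigen Mki67 (19.5, the floor and the floor) and topoisomerase Top2a (the floor, 45.8 and the floor) were at or near the floor.

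The tissue label was compared with regional markers. The posterior Hox list, which also holds members such as Hoxa4 and Hoxa5 and is not limited to trunk levels, lay at the 52.0 ± 4.73 percentile. Of its measured genes, 16 of 19 were above the floor on all arrays, against 85.4% of all genes. Hoxb8 led with 507, 349 and 249 (r type), followed by Hoxb6, Hoxa5 and Hoxc8 with means of 247, 237 and 231. Forebrain and midbrain genes were at 47.2 ± 2.93. The Hox list was the higher on each array (50.6, 57.3 and 48.2 against 46.2, 50.4 and 44.8), but the ranges over the arrays overlapped. The brightest of the forebrain and midbrain genes was Th, tyrosine hydroxylase, at 465, 549 and 642. The factors Pitx3 and Six3 averaged 380.0 and 350.2. The cortical factors Tbr1 and Neurod6 and the interneuron factors Dlx1 and Dlx2 averaged between 25.2 and 59.0. Cerebellar genes were at 48.4 ± 0.97, led by Pvalb, with the patterning factors Zic2 and En2 at means of 449 and 324, and Pcp2, a Purkinje cell gene, gave 95.8, 124 and 105. These regional lists, mostly transcription factors, did not set cord apart from brain at this signal level, while the general neural lists were bright.

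Genes known mainly from other organs show how bright single probe sets can be. The testis and germ line list was at 44.7 ± 4.56, liver and pancreas at 42.1 ± 1.41, skeletal muscle at 42.0 ± 2.34, adipocyte at 39.1 ± 7.30 and eye at 31.97 ± 5.53. All were under the position of all genes. Even so, Crygd, a lens crystallin, gave 695, 941 and 1019.8 and Lep, the fat hormone leptin, 438, 435 and 387. The sperm genes Prm1 and Odf1 averaged 419 and 363, and Cela1, a pancreatic elastase, 377. Single markers of other organs therefore reached means above the median of all genes, 139 units. Others were dim: the crystallin Crygb averaged 67.7, the testis lactate dehydrogenase Ldhc 21.7, the muscle actin Acta1 36.2 and the muscle myosin Myh4 30.1. Desmin, Des, the filament of muscle, gave 309, 325 and 359 and followed Pvalb in its list. In the testis list 0 of 12 members were higher on replicate 2 than on the mean of the others, and the eye list, with 1 such member, ran the same way, against 3838 of 7973 over all genes. That share was not matched for signal. The testis and eye lists had medians of 124 and 79.3 units. In the 10% steps of probe sets holding those signals, the median difference of replicate 2 was -0.02 and -0.13 log2.

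**Figure D4:**
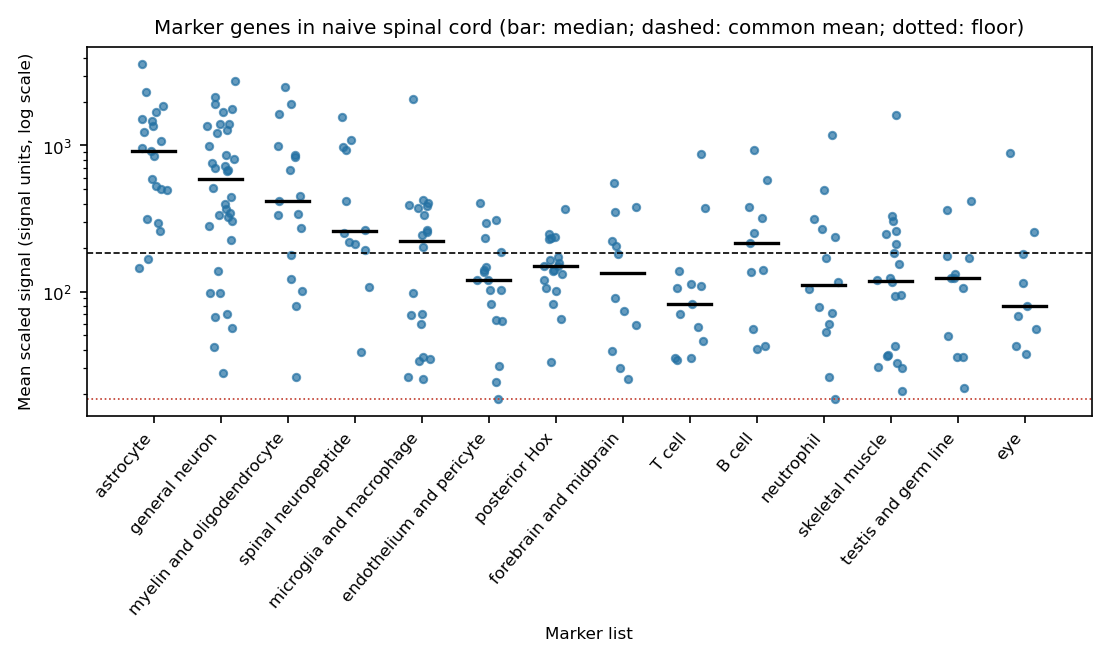
Mean scaled signal (log axis) of each measured member of 14 marker lists, with the list's median as a bar, the common mean of 183 dashed and the floor of 18.3 dotted. Medians fall from 922 for astrocyte to 79.3 for eye genes, and each immune or unrelated-organ list has 1 or more members well above its median.

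Lists of blood cells mixed bright and dim members. T cell genes lay at the 31.5 ± 2.99 percentile (28.4, 34.4 and 31.9). Cd4, the co-receptor of helper T cells, gave 832, 881 and 918. The T cell receptor kinase Zap70 gave 401, 381 and 346 with its plain probe set, but 1265, 1795 and 2161 with an r-type one. The receptor chains Cd247 and Cd3e averaged 138 and 112, under the median of all genes, 139 units. The dimmest members were the receptor chains Cd3g and Cd3d and the co-receptor Cd8a, which averaged 35.3, 35.1 and 34.1. Cd4 and the r-type Zap70 set thus stood far above these other T cell markers. The B cell list was at 61.8 ± 2.10. Vpreb1, a surrogate light chain of precursor B cells, gave 844, 973 and 999, the kinase Blk 530.0, 626 and 577 and the factor Pax5 405, 379 and 350.3. Cd22, a surface antigen of mature B cells, was low at 34.3, 68.8 and the floor.

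The neutrophil list was at 42.3 ± 6.91. Its receptor Csf3r gave 1194, 1072 and 1260.1 and the antimicrobial Camp 576, 444 and 457. The calgranulin S100a8, abundant in neutrophils, averaged 71.5, and its partner S100a9 was at the floor on all 3 arrays. Mast cell genes were at 21.8 ± 6.69, led by the tryptase Tpsb2 (319.8, 350.1 and 388). Cd4, Zap70 with its plain set, Vpreb1, Blk, Pax5, Csf3r, Camp and Tpsb2 each kept within 1.30-fold over the arrays. Other bright members of these lists varied more: Ms4a1, the B cell antigen CD20, gave 491, 297 and 161, and the neutrophil genes Lcn2 and Elane each ranged 1.84-fold. The r-type Zap70 set ranged 1.71-fold. Whether any of these signals come from blood cells was not tested.

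Erythroid genes had the widest spread between arrays (53.7 ± 16.1; 70.02, 37.8 and 53.3). The alpha-globin Hba-a1 gave 1225, 681 and 571, highest on replicate 2, and the beta-globin Hbb-b2 249.6, 61.1 and the floor. The factor Klf1 gave 740.1, 576 and 586 and the embryonic globin Hbb-bh1 238, 215 and 266.

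Chemokines had the lowest position of the functional lists, at 25.2 ± 8.27, and 4 of 23 members were at the floor on all arrays, against 105 of 8251 genes. These were Ccl2, Ccl6, Ccl7 and Cxcl9, which attract monocytes and T cells. Cx3cl1, the fractalkine made by neurons, gave 637, 585 and 497, and Cxcl12, made in healthy tissue as well, 512, 549.6 and 567. Ccl4 and Ccl22 averaged 761 and 397. The members named are thus those at the floor and a few above 2 times the common mean. Of all 23, 16 were above the floor on all 3 arrays, and the list's median was 61.6 units. Cytokines lay at 41.6 ± 2.59. Il1b, interleukin-1 beta, was at the floor on all 3 arrays, Ifng read the floor, 43.9 and the floor and Il6 88.2, the floor and 121. Csf1, the growth factor of microglia, gave 584, 586 and 611 and Csf3 an exact 0, 517 and 579.7. MHC genes were at 49.5 ± 7.76. The class II chain H2-Eb1 gave 435, 510.4 and 555 while H2-Ab1, another class II beta chain, was at the floor on all 3 arrays. The class I heavy chain H2-D1 gave 394, 352 and 316 and its light chain B2m 133, 57.2 and the floor. The antigen loading helpers Tapbp and H2-DMa averaged 311 and 242.

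The 105 genes whose representative was at the floor included 10 list members. They were the 4 chemokines, Il1b, H2-Ab1, S100a9, Cdh5 and Eef1g, all named above, and Ucp1, the uncoupling protein of brown fat. Others, picked after their values were seen, were the interferon-induced Ifit1, Ifit2 and Ifi47, the growth regulator Myc, the arginase Arg1 and the leukocyte tetraspanin Cd53. Of the 258 probe sets at the floor, 146 were plain and 29 were below 0 on all 3 arrays.

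Bright probe sets varied by gene. Over the 506 above 4 times the common mean with a value on every array, the median range was 1.45-fold. Of the 424 with 1 symbol, the widest range was that of Bscl2, the lipid droplet protein seipin, at 538, 4175 and 6544, a 12.2-fold range with replicate 2 lowest. It ordered the arrays as the hybridisation control sets ending in _at did: BioC gave 692, 2854 and 5126 with its 3′ probe set. This order was shared by 114 of the 506, and 196 had the reverse order. Whether the signal of Bscl2 is related to the controls was not tested. The 9 probe sets with the next widest ranges all had replicate 2 highest and replicate 4 lowest. Rac1, a small GTPase that controls actin, gave 3029, 934 and 652, and the actin-binding profilin Pfn2 1520.1, 560.3 and 319. Ina, a filament of neurons, gave 1649.6, 531 and 407 and Sptbn1, a spectrin of the membrane skeleton, 1633, 525 and 378. The others were Rps24 (r type), Eif4a2, Ywhab, Tspyl4 and Prkar1a, with ranges between 3.93-fold and 4.51-fold. The plain probe set of Rps24 was dimmer and ran the other way, at 234, 294 and 359. Replicate 2 was the highest array in 309 of the 506 and the lowest in 137.

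The 10 steadiest of these 424 probe sets belonged to other genes. Rnf167, a ubiquitin ligase, gave 852, 856 and 857, Ino80e, a subunit of a chromatin remodeller, 1794, 1803 and 1814 and Wbp1, a WW-domain binding protein, 1457, 1466 and 1437. These kept within 1.02-fold. Sprr2b, a relative of Sprr1b, gave 765, 778 and 797 (f type) and Krt81, a hair keratin, 895, 882 and 858. Basp1, the vitamin B6 kinase Pdxk, the nuclease Dnase1, Phf7 and the protein kinase Prkcd completed the 10, with ranges up to 1.06-fold.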

How the data were processed

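Spinal cord RNA of 9 samples was hybridised to 1-colour arrays, per the labels, and the 3 naive arrays are used here. The deposited values are linear intensity signals, 1 per probe set and array. The authors' scaling and summary method stay unknown: no method is given in the sources used here, and probe-level files were not used. Each array was multiplied so that its mean, after trimming 2% of probe sets at each end, became 183. Signals were then raised to a floor of 18.3 and taken to log2. The scale factors were 0.938, 0.986 and 1.09 for replicates 2, 3 and 4. Exact zeros were treated as missing, and control probe sets were left out. Of 12422 probe sets, 10833 had 1 gene symbol in the platform annotation, 396 several and 1193 none. Symbols were kept as given. A gene was represented by its brightest plain probe set, or, for 591 of 8251 genes, by its brightest set of another type.

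Named are the 30 brightest probe sets with 1 symbol, up to 4 brightest members of each list and list members at the floor. The 10 most and the 10 least variable bright probe sets and those next to rank 100 are named too. So are the 5 genes whose plain sets differ most among genes in the brightest 10%. Other genes are named as chosen later. The gene lists and members were chosen with earlier results of these data known. With no contrast, no test was made, and 3 arrays limit the precision. The computations were tested on simulated data. Alternatives were the values as deposited, quantile normalization, the geometric mean for ranking, other floors, exact zeros kept or dropped, plain probe sets only, the mean over the probe sets of a gene, and leaving out each array. Python 3.11.15 with pandas 2.3.3, numpy 2.4.6, scipy 1.17.1 and matplotlib 3.10.9 was used.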

Additional observations from a re-analysis of the deposited data

How the results depend on the processing

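The share held by the 100 brightest probe sets (10.5%) ranged from 9.86% to 10.9% when 1 array was left out. The number of probe sets at the floor on all arrays depended most on the setting: it was 258, but 103 with a floor of 5% of the common mean, 884 with 20%, 146 over plain probe sets only, and 395 to 565 when 1 array was left out, which leaves fewer arrays to agree. The mean correlation between arrays was 0.883, 0.832 with exact zeros put at the floor, and 0.839 to 0.908 without 1 array (0.908 without replicate 2). The number of lists at or above the 75th percentile was 10, 8 with the mean over all probe sets of a gene and 9 to 11 without 1 array. Over all alternatives the astrocyte list stayed between 88.9 and 97.2, the general neuron list between 85.7 and 91.4, myelin between 67.2 and 86.1, microglia between 52.2 and 67.6 and T cell between 29.2 and 36.0. With the mean over all probe sets of a gene, 22 lists moved by more than 1 SD, the farthest by 16.4 percentile points. Without replicate 2, 25 of the 30 brightest and 85 of the 100 brightest remained. No paired analysis was possible because no groups were compared and the naive arrays share no replicate number with other groups. Signal near the floor limits what can be said of dim genes, and probe-set design limits any order between genes.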
